A study of Mus musculus with 27 samples.

Results

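The 9 genes described here encode subunits of the Polycomb repressive complexes and members of the Mll family, *Ezh1*, *Ezh2*, *Eed*, *Suz12*, *Bmi1*, *Rnf2*, *Ring1*, *Mll3* and *Mll5*, out of 30869 gene symbols on Illumina MouseWG-6 arrays. A probe was taken where its symbol in the array's table equals one of these names, which gave 17 of 45281 probes. The genes were chosen by their measured levels in *Mbd2*-/- against WT cDC1s, with the fall of *Ezh2*, *Suz12* and *Mll3* there already known, so that comparison is given below as a description without a test.

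The arrays measured RNA of cells from mice lacking *Mbd2* in every tissue (*Mbd2*-/-, C57BL/6 background) and from their WT littermates, housed together. Mice that received 2% dextran sodium sulfate (DSS), which injures the colon epithelium, gave 3 sorted populations of the colon lamina propria. These were monocytes (CD11b+ Ly6C+; 5 arrays per genotype), macrophages (CD11b+ F4/80+ MHC-II+ Ly6C-; 5 arrays per genotype) and cDC1s, the dendritic cells sorted as CD11c+ CD11b- CD103+ (2 WT arrays and 3 *Mbd2*-/- arrays). Splenic CD4+ T cells, 1 array per genotype, came from mice 6 weeks after a T cell transfer. The mice were adult and matched for age and sex, a replicate held cells of a single mouse or of several pooled mice, and the p-values below measure the spread between these samples.

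The PRC2 complex, with *Ezh1* or *Ezh2* as its catalytic subunit and *Eed* and *Suz12* as its core, methylates lysine 27 of histone H3, a mark of silenced developmental genes. The PRC1 complex, with the ring finger proteins *Rnf2* and *Ring1* and partners such as *Bmi1*, attaches ubiquitin to histone H2A. *Mll3* (now *Kmt2c*) methylates lysine 4 of histone H3 at enhancers, and *Mll5* (now *Kmt2e*) is a PHD and SET domain protein of the same family. Mbd2 binds methylated CG dinucleotides in DNA and recruits the NuRD corepressor complex. DNA methylation was not measured on these arrays.

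The bases just before the annotated start of *Ezh2*, *Mll3* and *Suz12* are shown because these were the 3 members counted as lower in *Mbd2*-/- cDC1s, and because Mbd2 reads CG sites. Each run holds 250 bases, written 5′ to 3′ on the gene's own strand from RefSeq's GRCm38.p6 annotation, with every CG in capitals. *Ezh2* (chr6:47595031-47595280, minus strand) held 23 CG, *Mll3* (chr5:25498784-25499033, minus strand) held 48 and *Suz12* (chr11:79992856-79993105, plus strand) held 37.
Ezh2: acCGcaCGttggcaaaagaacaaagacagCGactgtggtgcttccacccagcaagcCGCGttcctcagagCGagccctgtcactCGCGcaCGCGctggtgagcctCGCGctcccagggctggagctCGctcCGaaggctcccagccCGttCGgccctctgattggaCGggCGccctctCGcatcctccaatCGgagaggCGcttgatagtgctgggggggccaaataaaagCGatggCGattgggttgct
Mll3: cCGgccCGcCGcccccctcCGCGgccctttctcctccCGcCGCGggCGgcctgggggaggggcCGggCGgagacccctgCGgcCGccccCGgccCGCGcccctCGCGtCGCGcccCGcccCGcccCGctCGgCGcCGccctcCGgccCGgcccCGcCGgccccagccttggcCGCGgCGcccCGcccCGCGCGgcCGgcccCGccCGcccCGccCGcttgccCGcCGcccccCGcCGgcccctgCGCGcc
Suz12: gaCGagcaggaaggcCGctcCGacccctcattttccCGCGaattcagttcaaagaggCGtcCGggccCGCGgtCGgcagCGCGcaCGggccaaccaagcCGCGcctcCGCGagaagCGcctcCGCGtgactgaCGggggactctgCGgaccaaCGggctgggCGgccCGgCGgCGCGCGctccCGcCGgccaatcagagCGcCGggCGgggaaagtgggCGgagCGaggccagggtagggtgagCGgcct
A CG reads the same on both strands. Across 32851 annotated promoters cut to the same 250 bases, 92.1% held at least 1 CG and the median was 6. *Ezh2* stood at the 86.7 percentile of that count, *Suz12* at 97.8 and *Mll3* at 99.8. The other members with an entry ran from 12 CG in *Eed* and 14 in *Ezh1* to 30 in *Ring1*. *Mll5* had no entry.

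Mean intensity over all probes was 172 to 353 on the 25 colon arrays, and 16024 to 18608 probes were detected (detection p under 0.05). It was 265 and 292 on the WT cDC1 arrays and 172 to 228 on the *Mbd2*-/- cDC1 arrays, so these groups did not overlap. The summed intensity of 9 cDC1 markers was 13591 to 14676 in WT cDC1s, 12846 to 14325 in *Mbd2*-/- cDC1s and 1093 to 2210 in monocytes and macrophages, and *Xcr1* and *Clec9a* were detected on all 5 cDC1 arrays. The 8 macrophage markers summed to 37720 to 44060 in macrophages, and the 5 monocyte markers to 5861 to 14165 in monocytes. The deleted gene itself could not be checked, since no array detected its probe. In the deposited table the monocyte arrays and both WT cDC1 arrays fill the first 2 sets of 6 columns, and the macrophage arrays and *Mbd2*-/- cDC1 arrays 27 and 28 the next sets. *Mbd2*-/- cDC1 array 30 stands after these. A chip of this type holds 6 arrays and the chip is not named, so for macrophages against monocytes and for genotype in cDC1s that position and the group cannot be told apart. The same holds for WT cDC1s against macrophages and for *Mbd2*-/- cDC1s against monocytes.

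For 5 members, *Eed*, *Suz12*, *Ring1*, *Mll3* and *Mll5*, the brightest probe was detected on all 25 colon arrays. *Rnf2* was detected on 23 arrays, *Ezh2* on 12, *Ezh1* on 10 and *Bmi1* on 6. Of all 17 probes, 6 were detected on all 25 arrays and 3 on none. Levels below are log2 normalized intensities of the brightest probe, and since probes differ in brightness no gene's level is set against another's.

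**Figure D1:**
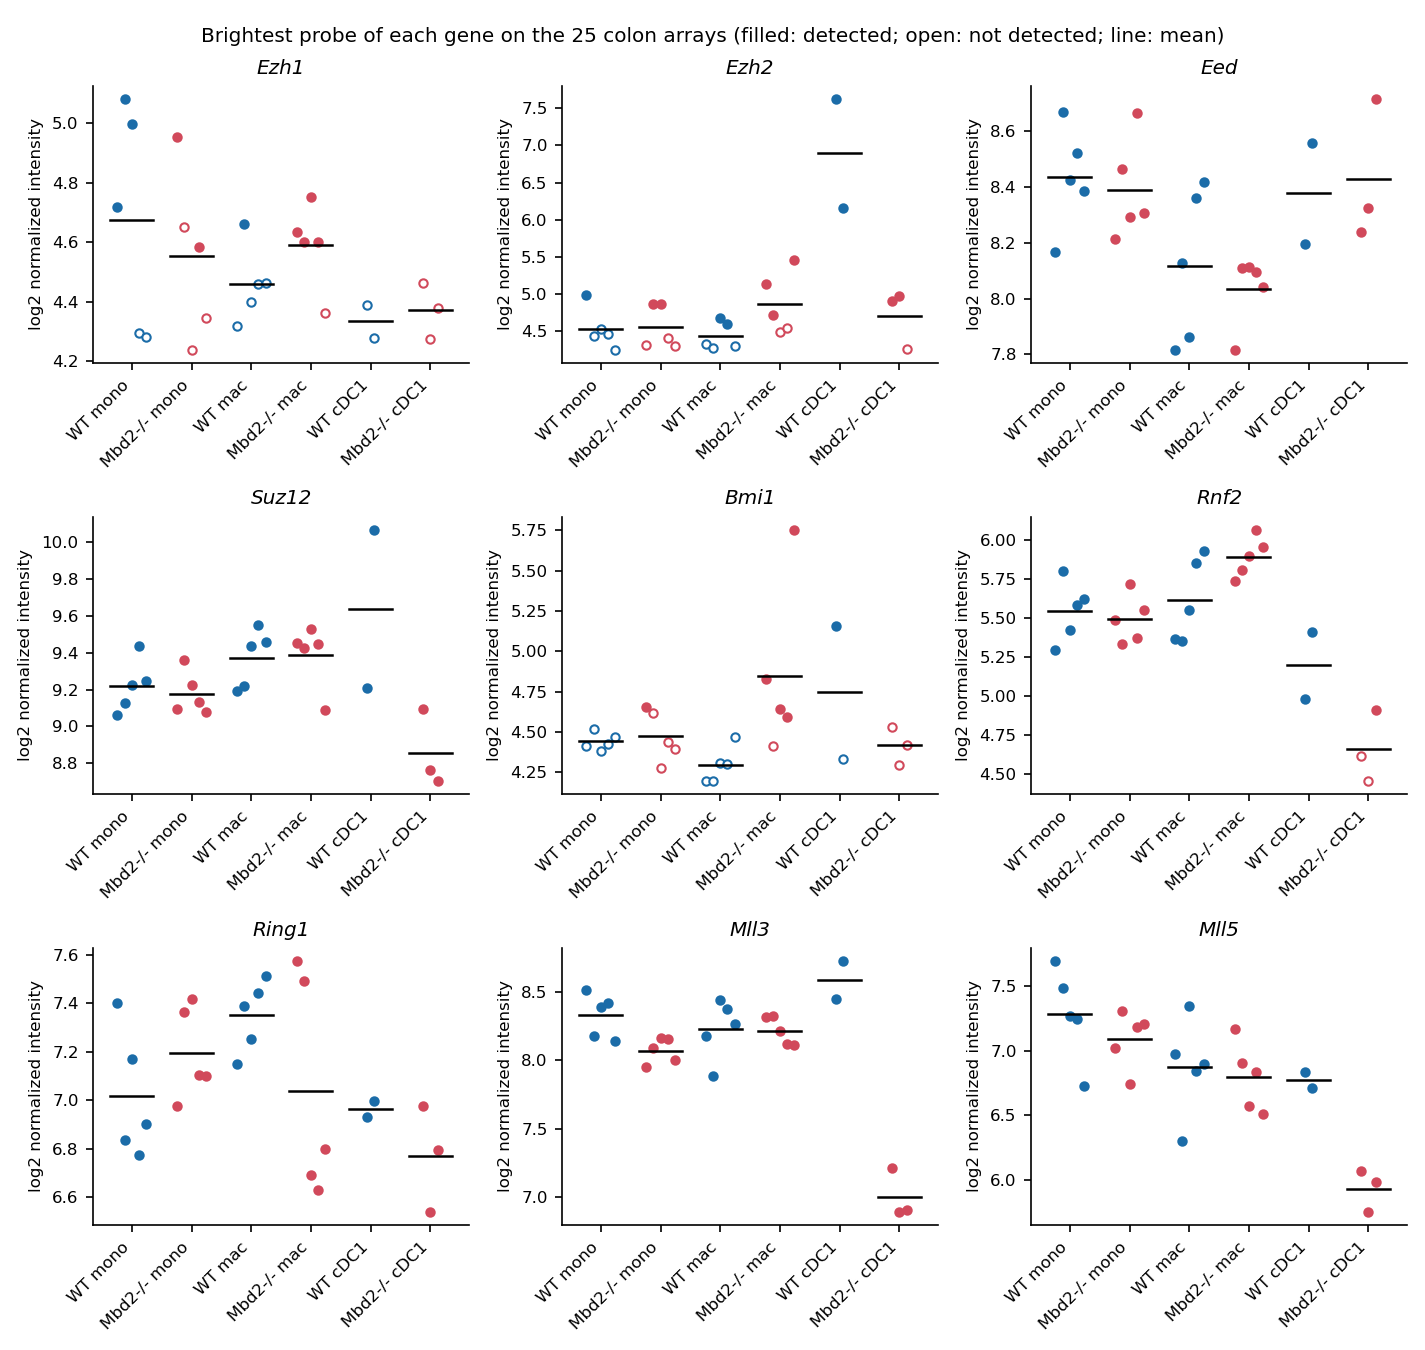
Level (log2 normalized intensity, vertical axis) of the brightest probe of each of the 9 genes on the 25 colon arrays, by cell type and genotype; each point is an array, filled where the probe was detected, and the line is the group mean. The 2 WT cDC1 arrays stand at 7.63 and 6.15 for *Ezh2* against at most 5.46 elsewhere, and the 3 *Mbd2*-/- cDC1 arrays at 6.89 to 7.22 for *Mll3* against at least 7.88 elsewhere.

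*Ezh2*, the catalytic subunit of PRC2 most active in dividing cells, was near background in monocytes and macrophages and bright in WT cDC1s. Its levels were 4.98, 4.43, 4.53, 4.46 and 4.24 in WT monocytes and 4.31, 4.87, 4.86, 4.41 and 4.30 in *Mbd2*-/- monocytes. They were 4.33, 4.28, 4.67, 4.60 and 4.31 in WT macrophages and 5.14, 4.72, 4.49, 4.54 and 5.46 in *Mbd2*-/- macrophages. The probe was detected on 8 of these 20 arrays, and the genotypes overlapped in both cell types. In cDC1s the levels were 7.63 (array 23) and 6.15 (array 26) in WT and 4.90, 4.97 and 4.26 (arrays 27, 28 and 30) in *Mbd2*-/-, where array 30 was not detected. Both WT arrays lay above all 23 other colon arrays, and the *Mbd2*-/- cDC1s lay within the range of monocytes and macrophages.

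The WT and *Mbd2*-/- cDC1s differed by -2.18 (standard error 0.34) on the log2 scale for *Ezh2*, a 4.53-fold lower mean in *Mbd2*-/-. That standard error, like those below, rests on 1 spread per probe shared by all 6 groups of cell type and genotype. The standard deviation of the *Ezh2* levels was 1.04 in WT cDC1s, 0.39 in *Mbd2*-/- cDC1s and 0.18 to 0.42 in monocytes and macrophages. The difference was -1.44 without WT array 23 and -2.92 without WT array 26. Before normalization the probe read 327 ± 22.5 (standard error over 34 beads) on array 23 and 152 ± 5.55 (35 beads) on array 26. On the *Mbd2*-/- arrays it read 95.5, 87.5 and 80.9. A second *Ezh2* probe gave 4.72 and 6.04 in WT and 4.78, 4.48 and 5.28 in *Mbd2*-/- cDC1s, so its groups overlapped and it placed the 2 WT arrays in the opposite order. The second probe differed by -0.53 (standard error 0.29), by -1.19 without array 23 and by 0.13 without array 26. The third *Ezh2* probe was detected on 2 of the 25 arrays, neither of them a cDC1 array.

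**Figure D2:**
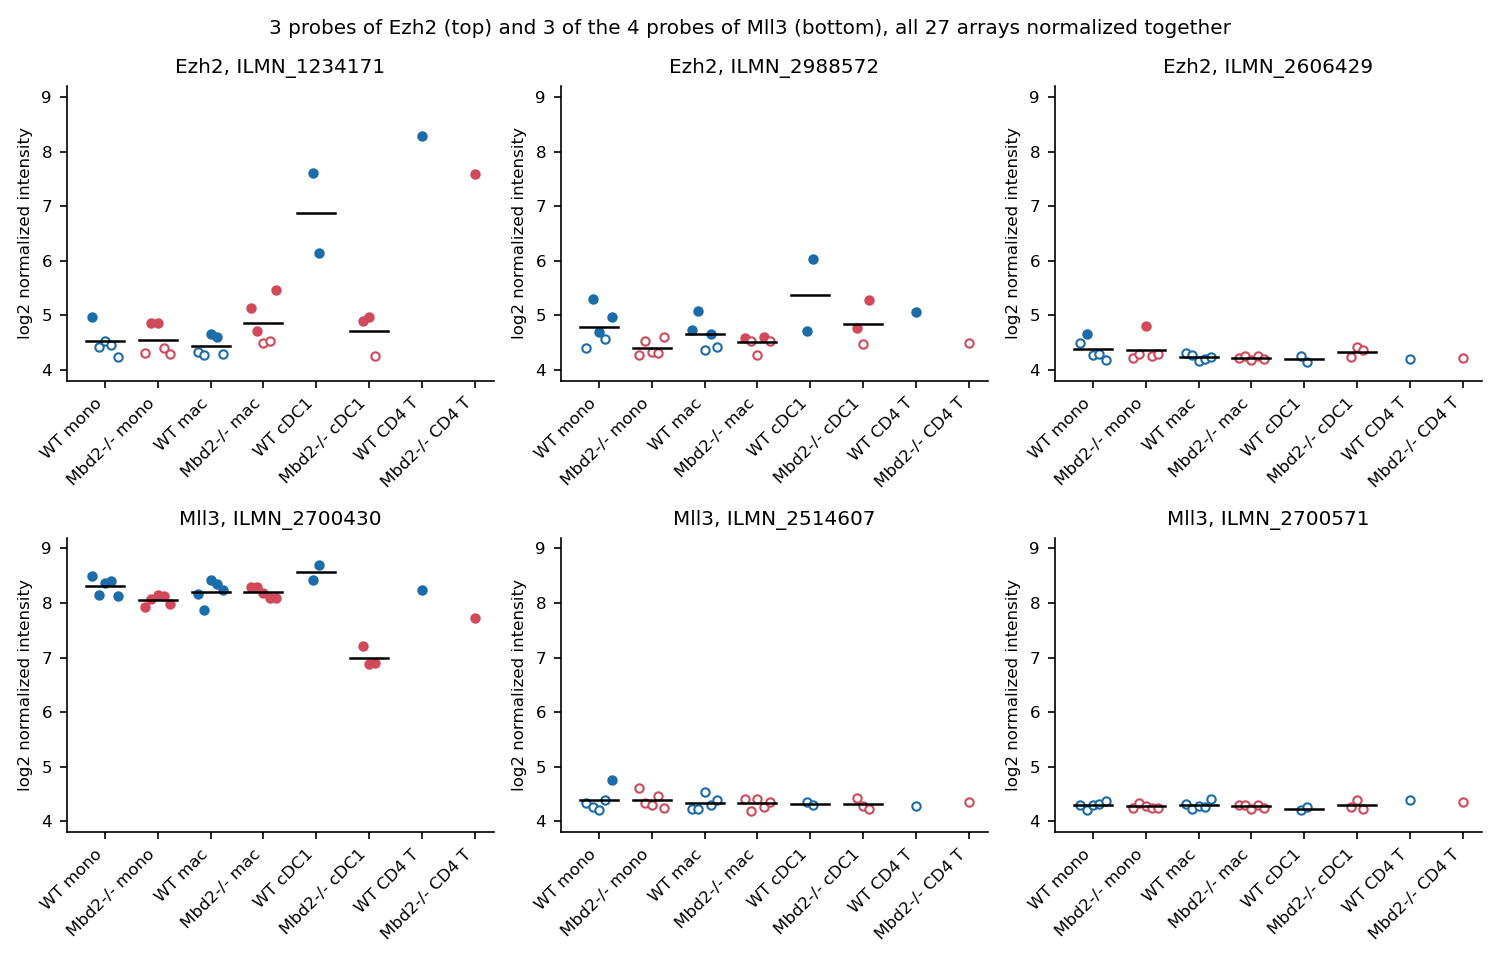
Level (log2 normalized intensity of all 27 arrays normalized together, vertical axis) of the 3 *Ezh2* probes (top) and 3 of the 4 *Mll3* probes (bottom) by cell type and genotype; each point is an array, filled where detected, and the line is the mean of groups with more than 1 array. The brightest *Ezh2* probe reached 8.29 and 7.59 in the T cells, the second 5.06 and 4.50, and only the brightest *Mll3* probe stood clear of background.

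*Mll3*, the enhancer methyltransferase, was close to even on every colon array but those of *Mbd2*-/- cDC1s. It measured 8.52, 8.17, 8.39, 8.42 and 8.14 in WT monocytes and 7.95, 8.09, 8.16, 8.15 and 8.00 in *Mbd2*-/- monocytes. In macrophages it measured 8.18, 7.88, 8.44, 8.38 and 8.27 in WT and 8.32, 8.32, 8.21, 8.12 and 8.11 in *Mbd2*-/-. All 20 of these arrays lay between 7.88 and 8.52. The cDC1 levels were 8.45 and 8.73 in WT and 7.22, 6.89 and 6.91 in *Mbd2*-/-, so the *Mbd2*-/- arrays were the 3 lowest of the 25. The difference was -1.58 (standard error 0.16), a 3.00-fold lower mean, and it ran from -1.73 to -1.45 as single arrays were left out. Intensities before normalization were 500 and 511 in WT and 186, 124 and 130 in *Mbd2*-/-. The other 3 *Mll3* probes were detected on 1 array or none and so gave no second reading.

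*Suz12*, the PRC2 core subunit, measured 9.21 and 10.07 in WT cDC1s and 9.09, 8.76 and 8.70 in *Mbd2*-/- cDC1s. The groups did not overlap, but WT array 23 lay far below WT array 26 and only just above *Mbd2*-/- array 27. The difference of -0.79 (standard error 0.19) became -0.36 without WT array 26 and -1.22 without WT array 23. Its standard error, too, uses a spread shared by all groups. The standard deviation of the levels was 0.61 in WT cDC1s, 0.21 in *Mbd2*-/- cDC1s and 0.12 to 0.17 in monocytes and macrophages. Monocytes and macrophages lay between 9.06 and 9.55. *Eed*, the PRC2 subunit that binds methylated lysine 27, measured 8.20 and 8.56 in WT and 8.24, 8.33 and 8.72 in *Mbd2*-/- cDC1s, overlapping ranges with a difference of 0.05 (standard error 0.19). *Ezh1*, the catalytic subunit typical of resting cells, was detected on no cDC1 array.

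Of the PRC1 genes, *Rnf2*, its main ubiquitin ligase, measured 4.98 and 5.41 in WT and 4.61, 4.45 and 4.91 in *Mbd2*-/- cDC1s, detected on both WT arrays and on 1 of the 3 *Mbd2*-/- arrays. These groups did not overlap, with a difference of -0.54 (standard error 0.19) that was -0.32 without WT array 26. *Ring1*, the other ligase, measured 6.93 and 7.00 in WT and 6.98, 6.54 and 6.80 in *Mbd2*-/-, and its 2 probes differed by -0.19 and -0.21 (standard errors 0.24 and 0.25). *Bmi1*, the partner that stimulates the ligases, was detected on WT array 23 alone of the 5. *Mll5* measured 6.84 and 6.71 in WT and 6.07, 5.75 and 5.98 in *Mbd2*-/- cDC1s. The *Mbd2*-/- arrays again lay below all other colon arrays, the lowest of which was 6.30, and the difference was -0.84 (standard error 0.26).

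In all, 9 of the 17 member probes met the detection limit for genotype in cDC1s, with a median difference of -0.54 beside 0.03 over all 17838 probes. At an adjusted p under 0.05, 0 of these were higher and 3 were lower, where 3.41% of all probes were higher and 3.23% lower. The choice of the genes used these values, so the counts are not evidence about the genes. In bulk RNA of sorted cells, fewer cells of a type and less RNA per cell cannot be told apart. The summed intensity of 8 macrophage markers was 2410 and 2522 in WT and 2755 to 5267 in *Mbd2*-/- cDC1s, that of 5 monocyte markers 598 and 659 against 757 to 1308, that of 7 neutrophil markers 592 and 656 against 1056 to 2526, and that of 8 B and plasma cell markers 1554 and 1829 against 1854 to 2132. Each *Mbd2*-/- array exceeded both WT arrays in all 4 of these sums and fell below them in mean intensity, and their part in the differences was not tested. On each cDC1 array 3 of the 5 monocyte markers, 7 or 8 of the 8 macrophage markers, 4 to 6 of the 7 neutrophil markers and 4 to 7 of the 8 B and plasma cell markers were detected. The sums of 7 T cell markers (649 and 2723 against 434 to 2214), 8 epithelial markers (2534 and 11549 against 3555 to 7653) and 23 cell cycle genes (7390 and 10912 against 9011 to 10141) overlapped.

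**Figure D3:**
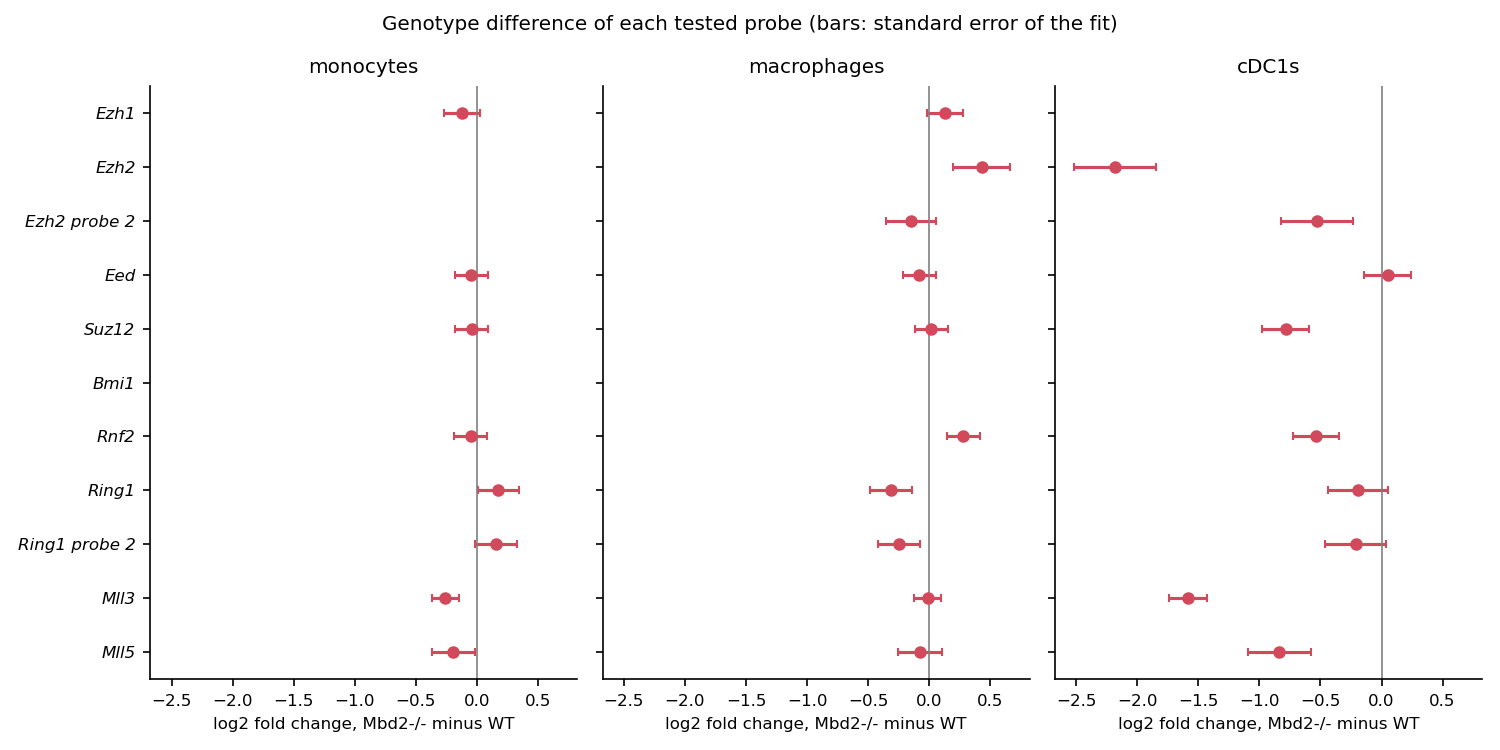
Difference between *Mbd2*-/- and WT (log2 fold change, horizontal axis, with its standard error from the limma fit) for each member probe that met the detection limit, in monocytes, macrophages and cDC1s; a gap is a probe not tested there. In monocytes the values lie between -0.26 and 0.18 and in macrophages between -0.31 and 0.43, and in cDC1s *Ezh2* stands at -2.18 and *Mll3* at -1.58.

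In monocytes and macrophages, whose values did not choose the genes, loss of *Mbd2* was tested and no member probe passed. In monocytes 8 probes of 7 members were tested with limma, and 0 rose and 0 fell at an adjusted p under 0.05, beside 0.859% and 0.945% of all 16190 probes. At an unadjusted p under 0.05 there was 1, *Mll3* (log2 difference -0.26, standard error 0.11, limma adjusted p = 0.278). The *Mll3* difference was -0.28 and -0.21 within the 2 sets of 6 columns that hold the monocytes. The other log2 fold changes lay between -0.19 for *Mll5* and 0.18 for *Ring1*, and median scaling of the arrays turned the latter to -0.12. *Ezh2* was not tested there, being detected on 3 of 10 arrays.

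In macrophages 10 probes of 8 members were tested, and 0 rose and 0 fell, beside 3.09% and 2.57% of all 16834 probes. *Rnf2*, at 5.37, 5.35, 5.55, 5.85 and 5.93 in WT and 5.74, 5.81, 5.90, 6.07 and 5.95 in *Mbd2*-/-, was the 1 probe at an unadjusted p under 0.05 (log2 difference 0.28, standard error 0.13, limma adjusted p = 0.203). Its groups overlapped, and the difference was 0.59 in one set of 6 columns and -0.08 in the other. *Ezh2* differed by 0.43 (standard error 0.23, limma adjusted p = 0.264) and its second probe by -0.15 (standard error 0.20). *Ring1* differed by -0.31 (standard error 0.17, limma adjusted p = 0.270). Its *Mbd2*-/- arrays split into 7.58 and 7.49, among the highest, and 6.69, 6.63 and 6.80, below all WT arrays (7.15, 7.39, 7.25, 7.44 and 7.51). *Mll3*, the member with the smallest standard error, differed by -0.01 (standard error 0.11).

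*Bmi1* was detected on 4 of 5 *Mbd2*-/- macrophage arrays (4.83, 4.64, 4.59 and 5.75, with array 17 at 4.41 below detection) and on 0 of 5 WT arrays (4.19 to 4.47). Between the group means this gave a bound of at least 1.18-fold higher in *Mbd2*-/- macrophages. This bound sets the mean of the *Mbd2*-/- arrays against the mean, over the WT arrays, of the lowest signal detected on each or the probe's own where that was higher. It ignores the spread, a standard deviation of 0.53 in the *Mbd2*-/- arrays, whose mean the array at 5.75 raises. With detection on 4 arrays where 5 were needed, *Bmi1* was not tested. Array 17 was the lowest of the *Mbd2*-/- arrays. Without it *Bmi1* met the limit, through the *Mbd2*-/- arrays alone, and was called (log2 difference 0.66, standard error 0.18). Leaving out the lowest array of the higher group raises the difference, so that call is no evidence.

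The genotype difference in macrophages minus that in monocytes was tested for 8 member probes, and 0 passed in either direction, with 0 at an unadjusted p under 0.05. Over all 16347 probes 0% were called higher and 0.0122% lower. The value of largest size was -0.49 for *Ring1* (standard error 0.24, limma adjusted p = 0.693).

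Between cell types, with the difference averaged over both genotypes, *Eed* and *Mll5* fell from monocytes to macrophages. *Eed* measured 8.17, 8.67, 8.43, 8.52 and 8.39 in WT and 8.21, 8.46, 8.29, 8.67 and 8.31 in *Mbd2*-/- monocytes. In macrophages it measured 7.81, 8.13, 7.86, 8.36 and 8.42 in WT and 7.82, 8.11, 8.11, 8.10 and 8.04 in *Mbd2*-/-. The ranges overlapped through the WT macrophages, and the difference was -0.34 (standard error 0.10, limma adjusted p = 0.00695), at -0.32 in WT and -0.35 in *Mbd2*-/- alone. *Mll5* ran from 6.73 to 7.70 (median 7.23) over the 10 monocyte arrays and from 6.30 to 7.34 (median 6.87) over the 10 macrophage arrays, and differed by -0.35 (standard error 0.13, limma adjusted p = 0.0296). Its call was lost, at adjusted p of 0.0501 to 0.0640, without any one of WT monocyte arrays 1 and 2, *Mbd2*-/- monocyte arrays 7 and 10, WT macrophage array 12 and *Mbd2*-/- macrophage arrays 18 and 20.

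Of 8 member probes tested in macrophages against monocytes, 0 were thus higher and 2 lower, beside 20.6% higher and 18% lower of all 16347 probes. Median scaling kept both directions (-0.32 and -0.32) but called neither, neither was called in WT or *Mbd2*-/- arrays alone, and *Mll5* was not called without the filter on dim probes. *Rnf2* differed by 0.23 (standard error 0.09, limma adjusted p = 0.0530) and *Suz12* by 0.18 (standard error 0.09, limma adjusted p = 0.138). *Mll3* stood at 0.02 (standard error 0.08), from -0.10 in WT to 0.14 in *Mbd2*-/-.

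The cDC1 arrays that enter the comparisons with macrophages and monocytes are those whose values chose the genes, so for the members these comparisons are given as differences with their standard errors and without p-values. Against macrophages, 11 member probes met the detection limit, and at the adjusted p used throughout 3 were higher and 3 lower, beside 27.3% and 25.6% of all 18138 probes. These counts, and the calls kept or lost below, use arrays that chose the genes and are no evidence about the genes. The averages over both genotypes hid large differences between them. *Ezh2* was detected on 5 of 10 macrophage arrays, and cDC1s differed by 2.45 (standard error 0.31) in WT and -0.16 (standard error 0.27) in *Mbd2*-/- arrays, an average of 1.15. Its second probe differed by 0.72 in WT and 0.34 in *Mbd2*-/-. The average of 0.53 was 0.20 without WT cDC1 array 26 and 0.43 without *Mbd2*-/- cDC1 array 30, and in both cases, as with median scaling (0.44), it was not past the limit. *Eed* differed by 0.33 (standard error 0.12), with 0.26 in WT and 0.39 in *Mbd2*-/-, but by -0.20 with median scaling. It was not past the limit without WT cDC1 array 26 (0.24), without *Mbd2*-/- cDC1 array 30 (0.26) or with array weights (0.30).

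For *Rnf2* the average difference of cDC1s from macrophages was -0.83 (standard error 0.12). It was -1.23 in *Mbd2*-/- arrays and -0.42 in WT arrays, where it was not past the limit. *Mll3* stood at 0.36 in WT and -1.21 in *Mbd2*-/-, opposite directions, around an average of -0.43 (standard error 0.10). *Mll5* stood at -0.10 in WT, not past the limit, and at -0.86 in *Mbd2*-/-, with an average of -0.48 (standard error 0.16) that was not past the limit without WT cDC1 array 26 (-0.45) or with cyclic loess (-0.39). The averages of *Ezh2* and *Mll3* thus describe neither genotype. For *Suz12* the average was -0.13 (standard error 0.12), of 0.27 in WT and -0.54 in *Mbd2*-/-.

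**Figure D4:**
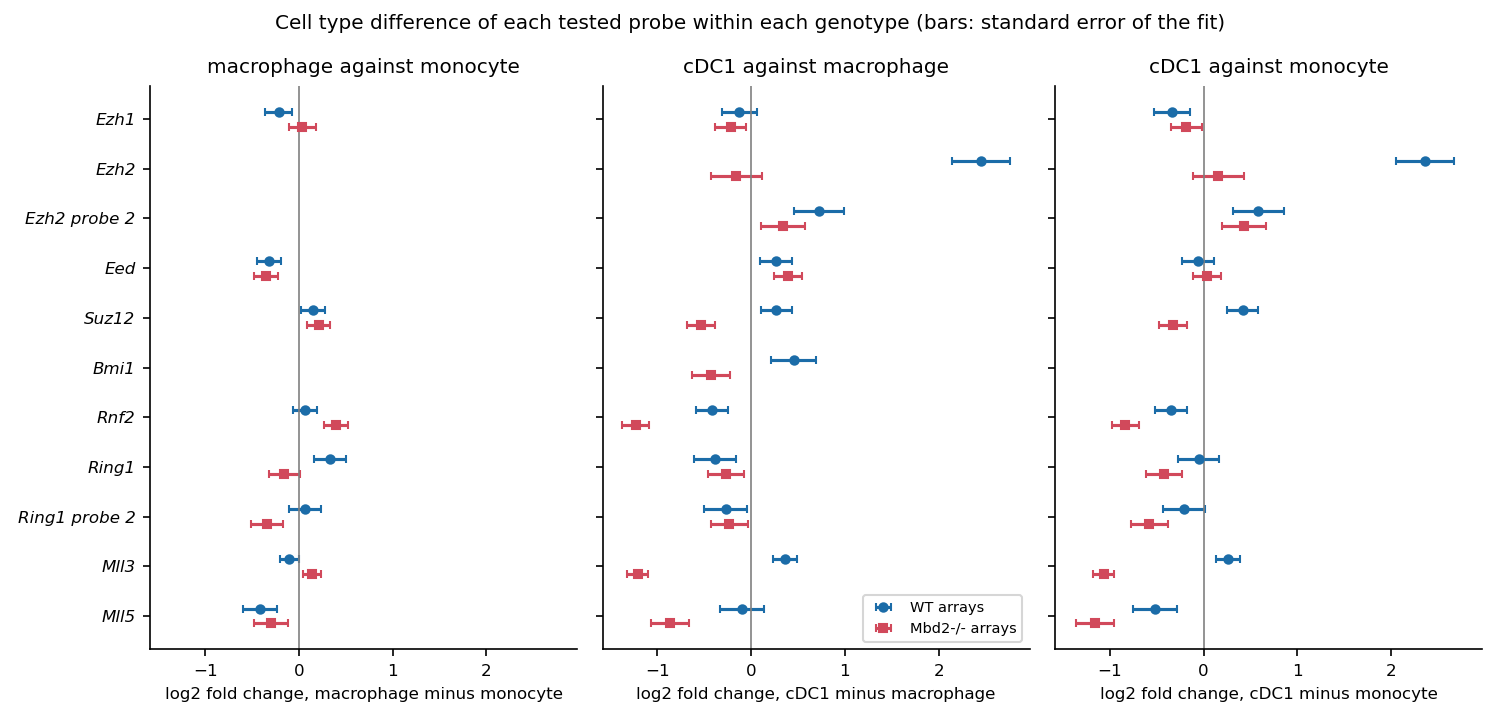
Difference between cell types (log2 fold change, horizontal axis, with its standard error from the limma fit) of each member probe tested, within WT (circles) and *Mbd2*-/- arrays (squares), for macrophages against monocytes, cDC1s against macrophages and cDC1s against monocytes. *Ezh2* in cDC1s stands at 2.45 and 2.36 in WT and at -0.16 and 0.16 in *Mbd2*-/-, *Mll3* changes side between genotypes, and *Rnf2* in cDC1s lies below 0 in both.

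Against monocytes, 10 member probes met the limit in cDC1s, and 2 were higher and 4 lower, beside 27.6% and 25.8% of all 17552 probes. Here too the counts and calls are descriptions, since the cDC1 arrays chose the genes. The 2 higher were both of *Ezh2*. Its brightest probe was detected on 3 of 10 monocyte arrays and 4 of 5 cDC1 arrays, so it met the limit through the cDC1s, and most monocyte levels are at background. The difference was 2.36 in WT and 0.16 in *Mbd2*-/-. The second probe's average of 0.51 (standard error 0.18) was not past the limit without WT cDC1 array 26 (0.18) or *Mbd2*-/- cDC1 array 30 (0.41), with median scaling (0.41) or in WT arrays alone (0.58). *Mll5* stood at -0.51 in WT and -1.16 in *Mbd2*-/-, and *Rnf2* at -0.35 and -0.83, and for both genes the WT value alone was not past the limit. *Mll3* stood at 0.26 in WT and -1.07 in *Mbd2*-/-. The dimmer *Ring1* probe differed by -0.39 (standard error 0.15), a call lost when any of 6 single arrays was left out and with cyclic loess, no filter or array weights, and the brighter probe by -0.24 (standard error 0.15).

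In order of median level, *Rnf2* was brightest in macrophages (5.83 of 10 arrays), then monocytes (5.52 of 10 arrays), then cDC1s (4.91 of 5 arrays), and macrophages and monocytes did not differ past the limit. *Mll5* ran from monocytes (7.23) through macrophages (6.87) to cDC1s (6.07), where WT cDC1s alone (6.84 and 6.71) lay among the macrophages. *Eed* was about as bright in monocytes (8.41) as in cDC1s (8.33) and lower in macrophages (8.10). *Suz12* had medians of 9.44 in macrophages, 9.18 in monocytes and 9.09 in cDC1s, and none of its averages over both genotypes was past the limit. That changed for cDC1s against macrophages with median scaling (-0.69) or without WT cDC1 array 26 (-0.35), for cDC1s against monocytes with median scaling (-0.55), and for macrophages against monocytes with array weights (0.23).

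The splenic CD4+ T cells had 1 array per genotype, so their values carry no replicate error, and they were read after all 27 arrays were normalized together. *Ezh2* was 8.29 in WT and 7.59 in *Mbd2*-/- T cells, above the mean of 6.88 in WT cDC1s on that scale. *Suz12* was 10.04 and 9.45, *Eed* 9.28 and 8.90, *Mll3* 8.24 and 7.73, and *Mll5* 8.25 and 7.74. All of these, with *Rnf2* (6.11 and 5.95) and *Bmi1* (5.88 and 5.48), read higher on the WT array. *Ring1* read the other way, 6.32 in WT and 7.55 in *Mbd2*-/-, as did its second probe, 5.53 and 6.05. So did the second *Suz12* probe, not detected at 4.33 in WT and detected at 4.84 in *Mbd2*-/-. Mean intensity over all probes was 258 on the WT and 180 on the *Mbd2*-/- T cell array, and its part in these values was not tested. *Bmi1* was detected on both T cell arrays and the second *Ezh1* probe too, though that probe was detected on no colon array. The 7 T cell markers summed to 24197 and 23426 on these arrays, while 7 neutrophil markers summed to 23422 on the WT array and 5405 on the *Mbd2*-/- array, and their part in the T cell values was not tested.

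Another 45 genes of the same complexes and of the enzymes that remove lysine 27 methylation or H2A ubiquitin were all on the array. Of 37 tested, 0 rose and 1 fell in *Mbd2*-/- monocytes, and in *Mbd2*-/- macrophages likewise 0 rose and 1 fell, with medians of -0.14 in both beside -0.02 and -0.07 over all probes. Of all probes, 0.859% rose and 0.945% fell in monocytes, and 3.09% rose and 2.57% fell in macrophages. The counts thus do not set these genes apart, and the gene that fell is given as a description. It was the same in both, *Kdm2b* (*Fbxl10* on the array), a lysine demethylase that brings PRC1 to unmethylated CG islands. In monocytes it ran from 7.55 to 8.20 (median 7.84) in WT and from 6.89 to 7.31 (median 7.18) in *Mbd2*-/-. In macrophages it ran from 8.17 to 8.66 (median 8.32) and from 7.75 to 8.01 (median 7.97). The genotypes overlapped in neither cell type. Beside this, the 8 B and plasma cell markers summed to 2277 to 2940 in WT and 1332 to 2259 in *Mbd2*-/- monocytes, and their part was not tested. In macrophages the 5 monocyte markers summed to 479 to 985 in WT arrays against 755 to 1290 in *Mbd2*-/- arrays, 1 of the 4 tested was past the limit and higher, and *Kdm2b* was itself lower in monocytes than in macrophages. The part of those cells was not tested either. The log2 fold change was -0.74 in monocytes (standard error 0.12, limma adjusted p = 0.00144) and -0.45 in macrophages (standard error 0.12, limma adjusted p = 0.0334). The difference between these was 0.29 (standard error 0.17, limma adjusted p = 0.740).

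As single arrays were left out, the monocyte value of *Kdm2b* stayed between -0.83 and -0.67 and passed in all 25 fits. The macrophage value stayed between -0.50 and -0.37 but lost its call without WT arrays 12 or 14 or *Mbd2*-/- arrays 19 or 20, with no filter (limma adjusted p = 0.0589) and with macrophages fitted alone (limma adjusted p = 0.108). Median scaling gave -1.08 in monocytes (limma adjusted p = 0.0630) and -0.50 in macrophages (limma adjusted p = 0.456). In cDC1s *Kdm2b* was 9.33 and 9.27 in WT and 9.18, 8.94 and 8.88 in *Mbd2*-/-. The array has 8 probes for the gene, and these are values of the brightest.

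In cDC1s, 39 of the 45 genes were tested for genotype, and 0 were higher and 2 lower, beside 3.41% and 3.23% of all probes, with a median of -0.02. The 2 were *Kdm6a* (*Utx* on the array), a lysine 27 demethylase that is part of the Mll3 complex, at -1.23 (standard error 0.31), and *Mll1*, another lysine 4 methyltransferase, at -1.13 (standard error 0.27). They come from the contrast that chose the members and are given without a test. Of 17 textbook Polycomb targets, mostly *Hox* and developmental genes, 8 could be tested in monocytes, 7 in macrophages and 9 in cDC1s, and 0 passed between genotypes in any of them. Of 23 cell cycle genes, 20 were tested in macrophages, and 2 were higher and 0 lower in *Mbd2*-/-, beside 3.09% and 2.57% of all probes. They were the mitotic kinase gene *Cdk1*, by 0.87 (standard error 0.20, limma adjusted p = 0.0169), and the topoisomerase gene *Top2a*, by 0.72 (standard error 0.21, limma adjusted p = 0.0446). *Top2a* was not past the limit with median scaling (limma adjusted p = 0.181). The list as a whole did not rise: its median difference was -0.15, beside -0.07 over all probes. Its 23 genes summed to 3922 to 4529 in WT and to 3776 to 4479 in *Mbd2*-/- macrophages.

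Between cell types the same 45 genes moved in both directions. In macrophages against monocytes 13 of 37 were higher and 5 lower (median 0.10), beside 20.6% and 18% of all probes. The higher ones included *Kdm2b* (0.61), *L3mbtl2* (0.52), the lysine 27 reader *Cbx7* (0.40) and the Mll complex subunits *Dpy30* (0.48), *Ash2l* (0.36) and *Men1* (0.35). The lower ones included the PRC1 genes *Rybp* (-0.71) and *Pcgf5* (-0.66), the lysine 27 demethylase *Kdm6b* (-0.47) and the PRC2 partner *Jarid2* (-0.40). Median scaling called 7 higher and 4 lower, with *Ash2l* (0.39) and *Men1* (0.41) not past the limit.

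In cDC1s against macrophages 8 of 39 were higher and 8 lower (median -0.05), beside 27.3% and 25.6% of all probes, and against monocytes 12 were higher and 8 lower (median 0.05), beside 27.6% and 25.8%. These shares were near or below those of all probes, and the genes are named as a description. Higher against both were the PRC1 polyhomeotic genes *Phc2* (1.45 and 1.33) and *Phc1* (0.92 and 1.05), *Kdm2b* (1.01 and 1.62) and *Dpy30* (0.61 and 1.09). With median scaling *Phc1* (0.40), *Kdm2b* (0.43) and *Dpy30* (0.04) were not past the limit against macrophages, and of these genes only *Phc2* stayed past it against both. *Rybp* was lower against both (-0.63 and -1.34), while *Cbx7* (-0.84) and *Pcgf3* (-0.67) led the decreases against macrophages. The histone binder gene *Rbbp7* passed too, but its probe was detected on 7 of the 25 arrays and met the limit only in comparisons that include cDC1s. These splits depended on the scaling: with median scaling, 2 were higher and 19 lower against macrophages and 7 higher and 14 lower against monocytes. Under it, the smaller increases of *Wdr5* against macrophages (0.25) and of *Hcfc1* (0.42) and *Men1* (0.24) against monocytes turned to -0.22, -0.10 and -0.14. Cell cycle genes stood apart from this, with 19 of 20 tested higher against macrophages and 20 of 20 against monocytes (16 and 17 with median scaling), and 15 of 20 were higher in macrophages than in monocytes (13 with median scaling). Of the Polycomb targets, *Hoxa5* was higher in macrophages than in monocytes (0.43) and lower in cDC1s than in macrophages (-0.76) or monocytes (-0.34). *Hoxa7* was higher in cDC1s than in macrophages (0.71) and monocytes (0.74), the first not past the limit with median scaling (limma adjusted p = 0.122). *Hoxb4* was lower in cDC1s than in monocytes (-0.59). With cyclic loess, *Hoxa5* (limma adjusted p = 0.0587) and *Hoxb4* (limma adjusted p = 0.0766) were not past the limit for cDC1s against monocytes.

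The probes whose pattern over the 25 colon arrays was most like that of *Ezh2*, by Pearson's r among 16127 probes, were those of *Slc25a20* (0.861), *Ivns1abp* (0.842 and 0.840), *1810007M14Rik* (0.841) and *Trim33* (0.832). For *Mll3* they were *Utx*, that is *Kdm6a* (0.891), *Zmym5* (0.886), *Nipbl* (0.882), *Tnrc6a* (0.876) and *4921518A06Rik* (0.874). After the means of the 6 groups were taken away, *Slc25a20* (0.790) was the 1 probe of these that stayed among the first 5, for *Ezh2* behind *Sdccag1* (0.841), *Eif5* (0.818), *Nab1* (0.813) and *Terf2* (0.794). For *Mll3* the first 5 then were *Zfp131* (0.865), *Rexo1* (0.826), *5830417I10Rik* (0.799), *Sh3bp1* (0.788) and *Ap1gbp1* (0.783). The *Ezh2* probe was detected on 12 of the 25 arrays and was highest on the 2 WT cDC1 arrays. Its r values before the group means were taken away rest largely on those arrays, whose values chose the genes. The r values of *Mll3* before that step likewise rest largely on the *Mbd2*-/- cDC1 arrays, which were lowest for *Mll3* and also chose the genes. After that step the WT cDC1s still had the largest spread of *Ezh2* levels (standard deviation 1.04). The points share arrays, hybridization and normalization, and the values are descriptions.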

How the data were processed

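Levels were measured on Illumina MouseWG-6 BeadChips in 27 samples, 25 of them from the colon. The authors deposited intensities, the mean brightness of each probe's beads, without normalization or background subtraction. The deposited detection p-value of each probe compares it with the array's negative control probes (936 in the table). The table holds 3 further signal columns that match no sample and were not used. The submitters' processing notes name lumi and limma. Background correction and normalization between arrays are not given in the sources used here.

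In this work normexp removed the background, using the negative controls and an offset of 16. Quantile normalization then put the colon arrays on one log2 scale. R (version 4.3.3) was used with limma (version 3.58.1) and the data.table package (version 1.17.8). A single linear model (lmFit, contrasts.fit, eBayes) of the 6 groups of cell type and genotype gave two-sided tests, adjusted by Benjamini-Hochberg over every probe tested in a comparison. Testing required a detection p under 0.05 on as many arrays as the smaller group of the comparison holds, and a probe passed at an adjusted p under 0.05. Cell type differences are means over both genotypes. The procedure was tested on simulated data.

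All 9 genes are named, each by its brightest probe on the colon arrays, with other probes where they differ. Of the gene lists, up to 3 per direction and comparison are named, those with the largest change among those past the limit. For *Ezh2* and *Mll3* the 5 most correlated probes are named. The genes and lists were chosen with earlier results of these data known. Of the 17 probes, 14 matched a RefSeq name, which served for names and promoters (GRCm38.p6). Alternatives were other background corrections (none, or an offset of 50), other scalings (median, cyclic loess), other filters on dim probes (none, or a limit of 0.01 on all arrays of a group), array weights, single cell types or genotypes, other thresholds, and each array left out. Added after seeing the data were sets of 6 columns as a random block, negative controls read from the table, the list counts under other scalings and the alternatives for *Kdm2b*. The number of arrays limits the precision.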

Additional observations from a re-analysis of the deposited data

Results flagged for a closer look

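Among levels of the brightest probes in the groups of 5 arrays, 2 samples lay far from the rest of their group, where chance marks about 1 in 20 groups. *Eed* was 7.82 on *Mbd2*-/- macrophage array 16, below the 4 other *Mbd2*-/- macrophage arrays at 8.04 to 8.11, and WT macrophage arrays reached as low (7.81). *Suz12* was 9.09 on *Mbd2*-/- macrophage array 20, below the 4 others at 9.42 to 9.53.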

How the results depend on the processing

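No paired analysis was made, since the sample numbers run on through all arrays and name no pairs. The paper reports several separate experiments, but the sample labels do not give the experiment of each array, so it was not modelled. Depth of signal limits *Ezh1*, *Bmi1* and, outside cDC1s and T cells, *Ezh2*, which lie near background, and cDC1s rest on 2 and 3 arrays. The number of member probes past the adjusted p kept within 1.5 times its value in 73 of 86 recomputed counts, and in 169 of 175 with an array left out. These tallies include comparisons whose count was 0, arrays that are not part of the comparison, and the cDC1 comparisons whose values chose the genes. They are therefore no measure of how firm the results are. For genotype in cDC1s 3 became 0 with that cell type fitted alone, a fit that called 0 of all probes. The main fit, where each probe's spread is shared with monocytes and macrophages, called 608 of all probes higher and 576 lower there. For macrophages against monocytes 2 became 0 with median scaling, WT arrays only or a minimum log2 change of 1, 1 with no filter, *Mbd2*-/- arrays only or an adjusted p under 0.01, and 4 with array weights. For cDC1s against macrophages 6 became 2 with WT arrays only, 3 at an adjusted p under 0.01 and 1 with a minimum log2 change of 1. Against monocytes 6 became 1 with WT arrays only and 1 with the minimum change. With single arrays left out the counts ran from 0 to 1 for genotype in macrophages (1 without *Mbd2*-/- array 17), 2 to 4 in cDC1s, 1 to 3 for macrophages against monocytes (1 without WT monocyte array 1, *Mbd2*-/- monocyte arrays 7 or 10, or *Mbd2*-/- macrophage arrays 18 or 20), 4 to 7 for cDC1s against either, and stayed at 0 for genotype in monocytes and for the difference between macrophages and monocytes. Genotype comparisons in monocytes and in macrophages gave 0 under every other alternative.

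Median scaling moved the median of all probes by -0.24 for genotype in monocytes, -0.39 in cDC1s, -0.27 for cDC1s against macrophages and against monocytes, and 0.24 for the difference between macrophages and monocytes. Values that changed sign are read against those shifts. In monocytes *Ring1* went to -0.12 and its second probe to -0.0673. *Suz12* went to -0.0794 for genotype in macrophages and to -0.55 for cDC1s against monocytes, *Eed* to -0.20 and *Bmi1* to -0.0127 for cDC1s against macrophages, and *Eed* to 0.23 for the difference between macrophages and monocytes. Cyclic loess turned *Mll3* to 0.0410 and *Mll5* to 0.0218 for genotype in macrophages and *Eed* to 0.0087 for the difference, and an offset of 50 turned *Bmi1* to -0.00201 for cDC1s against macrophages. The causes were not tested.

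With *Mbd2*-/- arrays only, signs turned for macrophages against monocytes in *Ezh1* (0.0353) and *Ring1* (-0.16), for cDC1s against macrophages in *Ezh2* (-0.16) and *Bmi1* (-0.43), and against monocytes in *Eed* (0.0393) and *Suz12* (-0.33). With WT arrays only they turned for macrophages against monocytes in *Mll3* (-0.10) and the second *Ring1* probe (0.0640), for cDC1s against macrophages in *Suz12* (0.27) and *Mll3* (0.36), and against monocytes in *Mll3* (0.26). Leaving out 1 array turned the sign of the second *Ezh2* probe for genotype in cDC1s from -0.53 (-1.19 to 0.13, the latter without WT array 26). It also turned the sign of values near 0: for genotype in monocytes *Eed* (-0.114 to 0.0133), *Suz12* (-0.0871 to 0.0124) and *Rnf2* (-0.113 to 0.0139), in macrophages *Suz12* (-0.0272 to 0.0927), *Mll3* (-0.0995 to 0.0393) and *Mll5* (-0.215 to 0.0447), for macrophages against monocytes *Mll3* (-0.00408 to 0.0652), for cDC1s against macrophages *Suz12* (-0.350 to 0.0814) and *Bmi1* (-0.20 to 0.22), against monocytes *Eed* (-0.0992 to 0.0826) and *Suz12* (-0.17 to 0.26), and for the difference *Eed* (-0.112 to 0.0393) and *Mll5* (-0.0255 to 0.256). Sets of 6 columns as a random block had a consensus correlation of 0.03, and that fit and negative controls read from the table changed no count by over 1.5 times. For macrophages against monocytes and for genotype in cDC1s position and group coincide. They also coincide for WT cDC1s against macrophages and for *Mbd2*-/- cDC1s against monocytes. The block cannot separate them there, so the unchanged counts decide nothing about position in those comparisons.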
